A study of Mus musculus with 3 samples.

Results

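The genes described here make cholesterol from acetyl-CoA, move and store it, and control its synthesis through the transcription factor SREBP2. They were 28 genes chosen by name, and all 28 were found, each with 1 identifier, among the 54532 genes of the deposited table. The cells were RAW264.7, a line of mouse macrophages from which the cytokine RANKL makes osteoclasts, the cells that resorb bone. The TSH groups received RANKL for 3 days and then 10 mU/mL of thyroid stimulating hormone (TSH) for 2 h or for 24 h, and the group of RANKL alone, labelled 0 h, received RANKL for 3 days without TSH. The genotype was wild type throughout, and every group, RANKL alone included, received RANKL. As a model this is a single tumour-derived line, and the TSH groups may also have been longer in culture, which cannot be told apart from TSH. The table held 1 library for each group, named T1 and T2 for TSH, and these names do not say which is 2 h and which is 24 h.

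Each value was an FPKM, a fragment count divided by gene length and library depth, as the authors deposited it. Reads per gene recovered from the FPKM summed to 16809034 in T1, 17390744 in T2 and 16156926 in RANKL alone. With 1 library per group no difference had a replicate check and no p-value was given. A ratio of FPKM is followed by its 95% exact conditional interval from the reads, which covers counting error only and compares these libraries, not the treatments. A gene is called lower or higher beyond counting error where that interval left out 1. Log2 changes are of FPKM + 1 and were summarised over genes that averaged 1 FPKM or more across the 3 libraries, a limit that 27 of the 28 genes passed. Fdps, at a lower mean, did not, and is given with its values only. Of osteoclast markers, 9 of 10 passed that limit in these cells, while the calcitonin receptor gene Calcr was at 0.412, 0.321 and 0.697 FPKM in T1, T2 and RANKL alone. None of 8 osteoblast and fibroblast markers and none of 5 neutrophil markers passed it, with summed levels of at most 0.380 and 0.126 FPKM in any library. Of 7 lymphocyte markers 1 passed, Lck, at 1.04, 1.31 and 1.249 FPKM in T1, T2 and RANKL alone. Of 6 dendritic cell markers 1 passed, Itgax, at 0.956, 1.16 and 1.32 FPKM, with ratios of 0.726 (0.533 to 0.986) and 0.884 (0.663 to 1.18).

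Cholesterol is built in stages: the mevalonate arm joins acetyl units into mevalonate and turns that into isopentenyl diphosphate, the isoprenoid arm joins these units into farnesyl and geranylgeranyl groups, and later enzymes close squalene into lanosterol and trim that to cholesterol. SREBP2 waits in the endoplasmic reticulum, bound to the escort SCAP and held there by INSIG proteins while sterols are plentiful. When sterols fall, SCAP carries it to the Golgi, where proteases release the part that turns on the enzymes of synthesis and Insig1. In osteoclasts the isoprenoid arm is the target of nitrogen-containing bisphosphonates, since geranylgeranyl groups anchor the small GTPases that resorption needs.

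Cyp51, Sqle and Insig1, the marker genes of the pathway, were measured from 1368 reads or more in each library. Cyp51 (chr5:4081145-4104746, minus strand, GRCm38), encoding the lanosterol demethylase, stood at 19.4 FPKM in T1, 20.3 in T2 and 23.9 in RANKL alone. Sqle (chr15:59315077-59331192, plus strand), encoding squalene epoxidase, was at 18.4, 19.5 and 22.2 FPKM in T1, T2 and RANKL alone. Insig1 (chr5:28071363-28078662, plus strand) was at 27.0, 25.2 and 31.4 FPKM in the same order. For these 3 genes both TSH libraries lay below RANKL alone.

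Among the 28 genes Srebf2, encoding SREBP2 itself, had the highest level in every library, at 52.8 FPKM in T1, 52.9 in T2 and 55.3 in RANKL alone. Its mean lay at percentile 91.2 of the 11069 genes past the limit. The lowest were Fdps, at 0.709, 0.895 and 1.05 FPKM, and Tm7sf2, which encodes a sterol reductase, at 1.22, 1.204 and 1.14 FPKM in T1, T2 and RANKL alone. The enzymes spanned a wide range within the pathway, with Mvd at 27.6 FPKM or more in every library. The 18 enzymes of synthesis that passed the limit had a summed level of 235 FPKM in T1, 230 in T2 and 262 in RANKL alone. Control and handling genes, 9 in number, summed to 156, 154 and 162 FPKM.

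**Figure D1:**
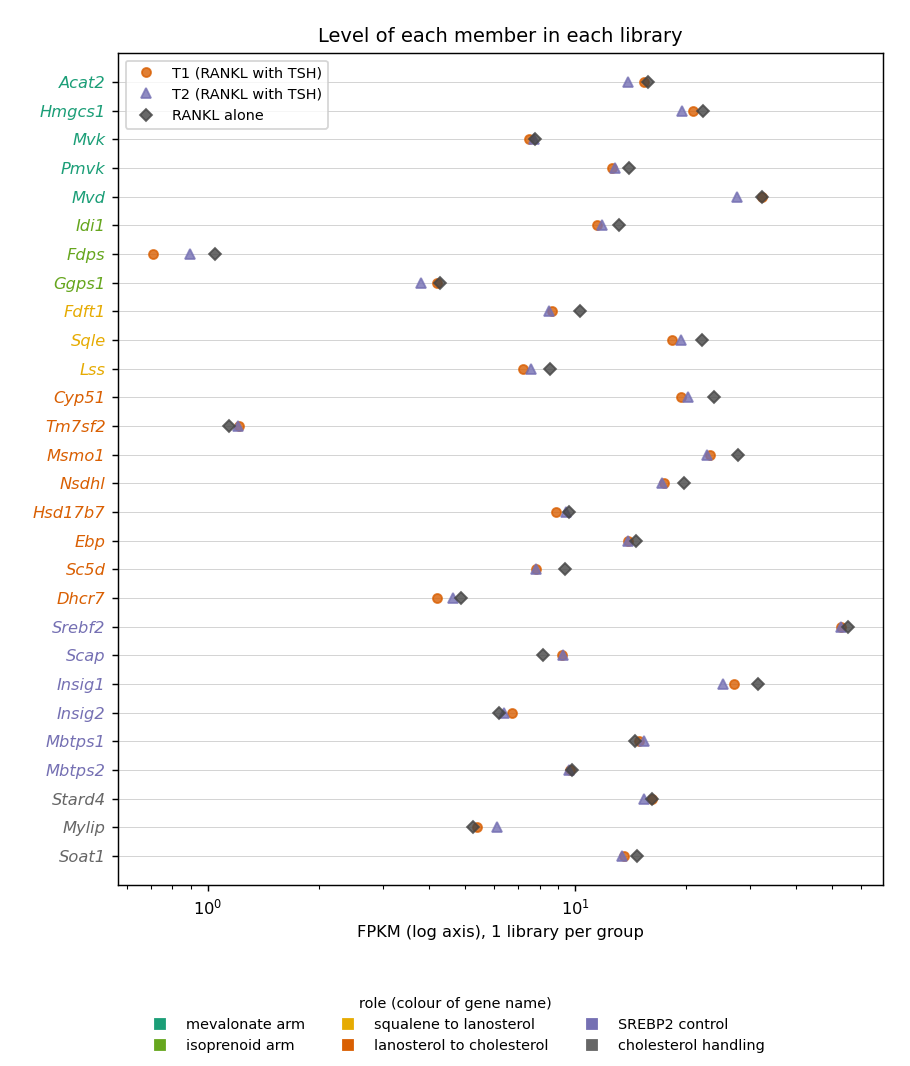
FPKM of each of the 28 genes in T1, T2 and RANKL alone, 1 point per library, on a log axis, with genes in pathway order and names coloured by role. Srebf2 lies farthest right, at 52.8 to 55.3 FPKM, Fdps farthest left, at 0.709 to 1.05 FPKM, and for most enzymes the diamond of RANKL alone lies to the right of both TSH libraries.

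SREBP2 binds sterol regulatory elements close to gene starts, usually beside a CCAAT box, which binds NF-Y. Promoter windows from RefSeq (GRCm38.p6), which ran from 250 bases before to 50 after the start site, were matched by symbol for 24 of the 28 genes. The bases before the start are shown for 4 of them, so that these letters can be read: Hmgcs1 because it alone held the element searched, and Cyp51, Msmo1 and Insig1 because they had the most negative log2 changes in a TSH library among genes with a window. These 3 were chosen after their values were seen. Each runs 5′ to 3′ on the strand of its gene, and capitals mark TCACNCCAC, for the sterol regulatory element, and CCAAT, on either strand, so that ATTGG is a CCAAT box on the other strand.
Hmgcs1 (chr13:119690101-119690350, plus strand): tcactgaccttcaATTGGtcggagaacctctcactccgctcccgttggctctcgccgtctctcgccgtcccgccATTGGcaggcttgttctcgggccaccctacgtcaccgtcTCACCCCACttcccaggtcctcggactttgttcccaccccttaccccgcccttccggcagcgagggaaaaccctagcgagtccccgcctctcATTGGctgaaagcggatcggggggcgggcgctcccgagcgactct
Cyp51 (chr5:4104698-4104947, minus strand): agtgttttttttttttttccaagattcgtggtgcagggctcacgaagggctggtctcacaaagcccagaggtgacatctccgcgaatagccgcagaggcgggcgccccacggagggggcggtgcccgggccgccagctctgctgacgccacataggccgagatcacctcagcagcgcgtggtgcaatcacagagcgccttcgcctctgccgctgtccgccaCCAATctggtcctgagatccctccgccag
Msmo1 (chr8:64733579-64733828, minus strand): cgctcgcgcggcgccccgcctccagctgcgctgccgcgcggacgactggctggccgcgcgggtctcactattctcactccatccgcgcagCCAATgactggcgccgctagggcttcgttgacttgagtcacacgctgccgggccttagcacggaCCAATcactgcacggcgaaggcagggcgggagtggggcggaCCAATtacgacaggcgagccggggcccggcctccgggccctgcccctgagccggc
Insig1 (chr5:28071162-28071411, plus strand): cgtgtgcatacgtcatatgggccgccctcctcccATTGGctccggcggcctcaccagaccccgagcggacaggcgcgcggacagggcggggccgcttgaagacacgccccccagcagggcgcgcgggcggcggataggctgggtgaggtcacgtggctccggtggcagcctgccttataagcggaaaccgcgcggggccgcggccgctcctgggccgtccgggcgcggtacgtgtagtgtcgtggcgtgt

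In the Hmgcs1 window the sterol regulatory element began at base -137 from the start, and in these 250 bases 3 CCAAT boxes stood on the other strand, at -237, -176 and -45. Msmo1 had 3 CCAAT boxes on its own strand, Cyp51 had 1, at -29, and Insig1 had 1, at -216. Over the whole windows CCAAT was found in 20 of the 24 genes, or 83.3%, against 43.4% of the 7830 genes past the limit that had a window and 41.1% of all 27025 genes with one. The 4 genes without it were Acat2, Scap, Mbtps1 and Mbtps2. GGGCGG, the GC box that Sp1 binds, was in 87.5% of the 24 genes, against 71.2% of the genes past the limit and 38.2% of all genes. The E-box CACGTG was in 5 of the 24, or 20.8%, against 12.6% and 8.09%. TCACNCCAC was in 1 of the 24, or 4.17%, against 1.44% of the genes past the limit. A gene with several windows counted if any held the motif. Both strands were searched, and each motif was counted whether or not it overlapped another. A match describes letters, not binding, and a missing match says only that these letters are not in the window.

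**Figure D2:**
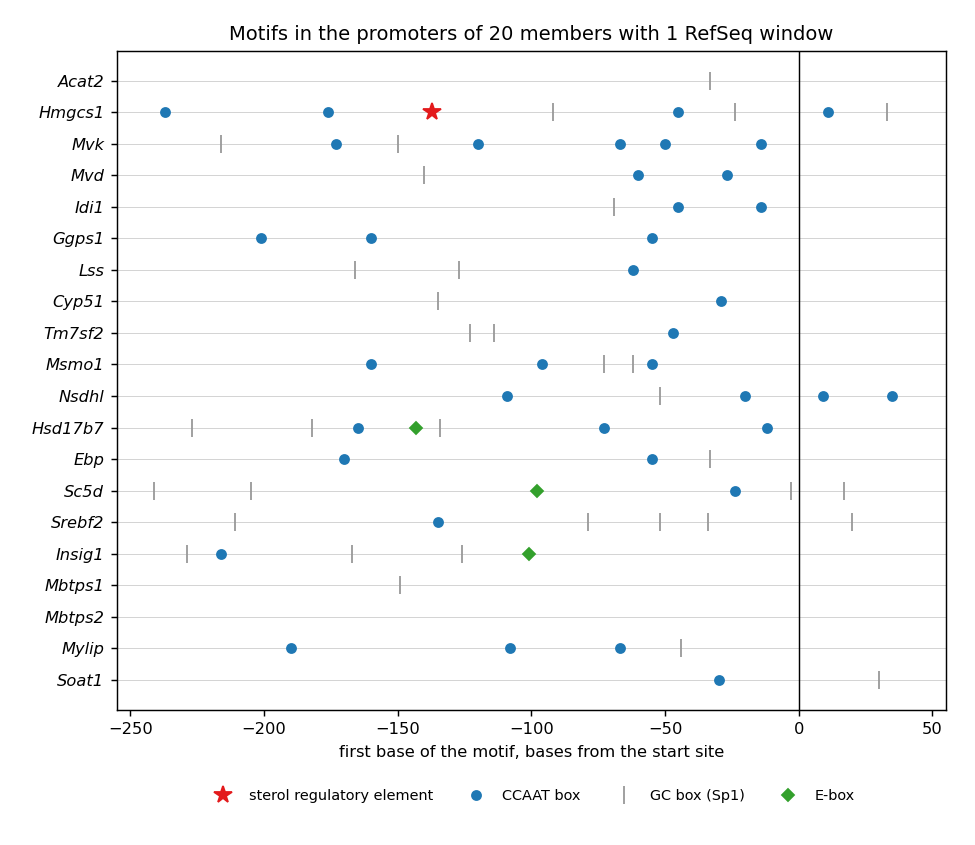
First base of each motif, in bases from the start site, in the promoter windows of the 20 genes with 1 RefSeq window, both strands. The star marks the sterol regulatory element of Hmgcs1 at -137, circles are CCAAT boxes, vertical ticks GC boxes and diamonds E-boxes; Mbtps2 has none of the 4 motifs.

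The first question was how the TSH libraries differed from RANKL alone. In T1, 12 of the 27 genes past the limit were lower beyond counting error and 1 was higher, against 12.2% lower and 10.8% higher over all 11069 genes. The same calls in T2 were 14 lower and 2 higher, against 13.2% and 10.2%. The median log2 change of the 27 genes was -0.08 in T1 and -0.13 in T2, against -0.0014 and -0.0018 over all genes. The genes and call rules were chosen with earlier results of these data known. The part of that choice in these shares and medians was not tested. Leaving out 11 genes that share near-identical sequence with another gene, 8 with a copy at another locus and 3 with a gene that overlaps them, the median in T2 was -0.07 and 8 of 17 genes were lower beyond counting error. By size, 11 genes in T1 and 13 in T2 were lower past a fold of 1.1, against 14.6% and 14.5% of all genes, and 1 and 2 were higher past it, against 14% and 13.9%. No member reached a change of 1.5-fold in either comparison on the scale of FPKM + 1. The genes were covered by a median of 2608 reads over the 3 libraries, against 1833 over all genes past the limit, so smaller changes pass the counting interval here than in a typical gene. Both comparisons share the library of RANKL alone, so a value of that library enters both, and its part in genes that were lower in both was not tested.

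The enzymes and the control genes are given apart. Of the 18 enzymes past the limit, 17 had a log2 change below 0 in T1, where 50.4% of all genes did, and 1 above 0, where 49.6% did. In T2 the same counts were 17, against 50.6%, and 1, against 49.4%. The exception in both was Tm7sf2, which with libraries scaled to the 12 reference genes was at -0.0019 in T1 and -0.0064 in T2. Their median log2 changes were -0.15 in T1 and -0.16 in T2. The 9 control and handling genes had medians of 0.0020 and -0.022, with 4 below 0 in T1 and 5 in T2. That enzymes and control genes differ was not tested.

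**Figure D3:**
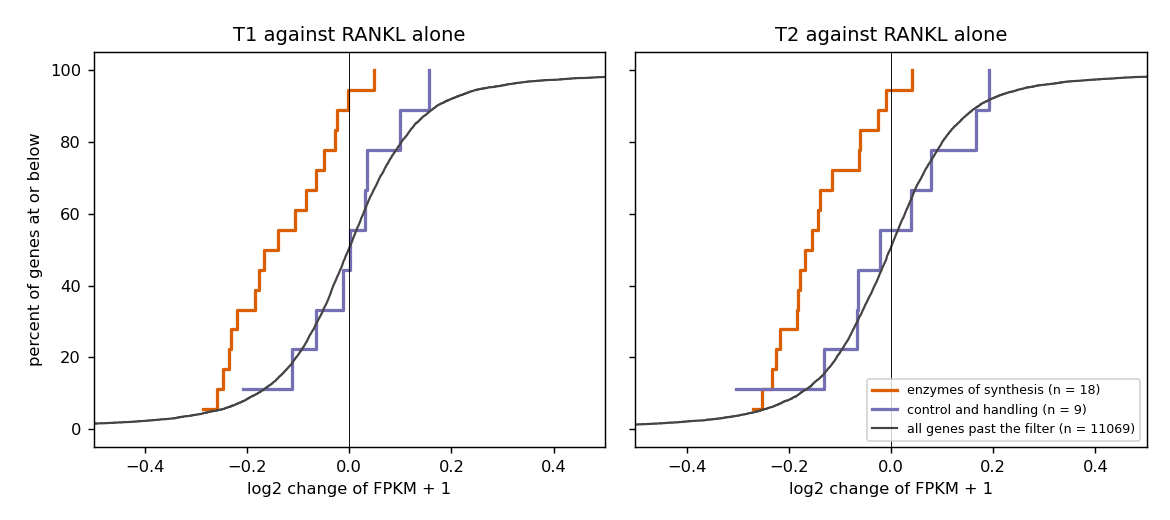
Cumulative percent of genes at or below each log2 change of FPKM + 1, for T1 and for T2 against RANKL alone, for 18 enzymes of synthesis, 9 control and handling genes and all 11069 genes past the limit. The curve of the enzymes lies to the left of that of all genes, with medians of -0.15 and -0.16, while that of the control and handling genes, with medians of 0.0020 and -0.022, runs close to it.

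In the mevalonate arm, 0 of 5 genes were lower beyond counting error in T1, against 12.2% of all genes, and 3 of 5 in T2, against 13.2%. Hmgcs1 (chr13:119690379-119708260), encoding the synthase that makes HMG-CoA, was at 20.98 FPKM in T1, 19.5 in T2 and 22.3 in RANKL alone. Its ratio to RANKL alone was 0.941 (0.878 to 1.01) in T1 and 0.875 (0.816 to 0.938) in T2. Mvd (chr8:122433601-122443422), whose decarboxylase makes isopentenyl diphosphate, was at 32.2, 27.6 and 32.2 FPKM in T1, T2 and RANKL alone. T1 and RANKL alone were level for Mvd and T2 was below both, with a ratio to RANKL alone of 0.999 (0.913 to 1.09) in T1 and, in T2, 0.856 (0.780 to 0.938). Acat2, encoding the cytosolic thiolase of the first step, was at 15.4, 13.9 and 15.7 FPKM, with ratios of 0.980 (0.878 to 1.09) and 0.883 (0.790 to 0.988). Acat3, a copy of Acat2 with 97.7% identity over 1477 aligned bases, held 11, 13 and 22 reads, and with these added the ratio of Acat2 in T2 was 0.872 (0.781 to 0.974). The mevalonate kinase gene Mvk, at 7.47, 7.70 and 7.76 FPKM, and the phosphomevalonate kinase gene Pmvk, at 12.6, 12.8 and 13.97 FPKM, were not called in either library. The ratios of Mvk were 0.962 (0.824 to 1.12) and 0.992 (0.852 to 1.15), and those of Pmvk 0.902 (0.779 to 1.04) and 0.918 (0.795 to 1.06).

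In the isoprenoid arm, Idi1 was lower beyond counting error in both TSH libraries. Idi1 encodes the isomerase that readies isopentenyl diphosphate for joining, and it was at 11.5 FPKM in T1, 11.9 in T2 and 13.2 in RANKL alone. Its ratios were 0.872 (0.784 to 0.968) in T1 and 0.898 (0.810 to 0.996) in T2. Pseudogene Gm13502, identical to Idi1 over 684 bases, held 10, 9 and 5 reads, and with the copies added the interval in T2 reached 1 (0.903, 0.815 to 1.001). Ggps1, encoding geranylgeranyl diphosphate synthase, was at 4.21, 3.81 and 4.29 FPKM in T1, T2 and RANKL alone. Its intervals held 1 in both, with ratios of 0.979 (0.838 to 1.14) and 0.887 (0.757 to 1.04).

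Fdps, encoding farnesyl diphosphate synthase, the enzyme that nitrogen-containing bisphosphonates block, could not be read from its own row alone. That row held 50 reads in T1, 66 in T2 and 71 in RANKL alone, the fewest of the 28 genes. A processed pseudogene, Gm3571, with 98.9% identity to Fdps over 1062 bases, held more, at 256, 254 and 313 reads. Another, Gm5873, held 55, 33 and 69 reads, and the gene model Gm43738 shares 1124 exon bases with Fdps on the same strand and held 0 reads. Fdps and its 6 copies together had 361 reads in T1, 353 in T2 and 453 in RANKL alone. The ratio of these sums was 0.766 (0.666 to 0.882) in T1 and 0.717 (0.622 to 0.826) in T2, while the row of Fdps alone gave 0.677 (0.462 to 0.986) and 0.856 (0.603 to 1.21). With or without the copies both TSH libraries lay below RANKL alone, but which of these loci the reads came from cannot be told apart.

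From squalene to lanosterol, 3 of 3 genes were lower beyond counting error in both TSH libraries, against 12.2% of all genes in T1 and 13.2% in T2. The Sqle levels given above correspond to ratios of 0.828 (0.776 to 0.884) in T1 and, in T2, 0.878 (0.824 to 0.936). Lss, encoding lanosterol synthase, was at 7.20, 7.58 and 8.55 FPKM in T1, T2 and RANKL alone, with ratios of 0.842 (0.781 to 0.908) and 0.886 (0.824 to 0.954). Fdft1 (chr14:63145150-63179578), encoding squalene synthase, was at 8.62, 8.51 and 10.3 FPKM, with ratios of 0.835 (0.748 to 0.932) and 0.824 (0.739 to 0.918). Its exons share 774 bases with those of Ctsb, a lysosomal protease gene on the opposite strand. Ctsb was far more abundant, at 224, 236 and 271 FPKM, and was itself lower, with ratios of 0.827 (0.812 to 0.841) and 0.873 (0.858 to 0.889). Whether the counting used strand is not given in the sources used here, so the part of Ctsb reads in the Fdft1 values was not tested.

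From lanosterol to cholesterol, 5 of 8 genes were lower beyond counting error in T1 and 4 of 8 in T2, against 12.2% and 13.2% of all genes. The ratios of Cyp51 were 0.813 (0.757 to 0.872) in T1, where its log2 change of -0.29 was the lowest of the 27 genes, and 0.849 (0.792 to 0.910) in T2. Its exons share 166 bases with those of Akap9 on the opposite strand, whose ratios were 0.958 and 0.952, with intervals that held 1. Msmo1 (chr8:64718139-64733792), encoding the methylsterol oxidase that acts after Cyp51, was at 23.3 FPKM in T1, 22.9 in T2 and 27.8 in RANKL alone. Both TSH libraries were lower for Msmo1, at ratios of 0.837 (0.792 to 0.884) and 0.824 (0.780 to 0.870). Sc5d, the sterol desaturase gene, was at 7.84, 7.83 and 9.38 FPKM, with ratios of 0.836 (0.751 to 0.931) and 0.835 (0.751 to 0.929). Nsdhl, encoding the sterol dehydrogenase that removes methyl groups, was at 17.5, 17.3 and 19.7 FPKM, with ratios of 0.886 (0.805 to 0.974) and 0.876 (0.797 to 0.962). For Msmo1, Sc5d and Nsdhl the TSH libraries lay close together and below RANKL alone.

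Dhcr7, encoding the reductase of a last step to cholesterol, was at 4.20 FPKM in T1, 4.64 in T2 and 4.88 in RANKL alone. It was lower beyond counting error in T1, at a ratio of 0.861 (0.752 to 0.986), and not in T2, at 0.951 (0.834 to 1.08). Hsd17b7, a keto-reductase gene, was at 8.89, 9.46 and 9.65 FPKM, and the sterol isomerase gene Ebp at 13.9, 13.96 and 14.6 FPKM. Neither was called: the ratios of Hsd17b7 were 0.922 (0.833 to 1.02) and 0.981 (0.889 to 1.08), and those of Ebp 0.953 (0.844 to 1.08) and 0.954 (0.847 to 1.08). Among the enzymes past the limit, Tm7sf2 alone had both ratios above 1, at 1.06 (0.808 to 1.403) in T1 and 1.05 (0.803 to 1.39) in T2, from 114, 118 and 103 reads. It shares 532 exon bases on the same strand with Vps51, which held 58, 52 and 45 reads.

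**Figure D4:**
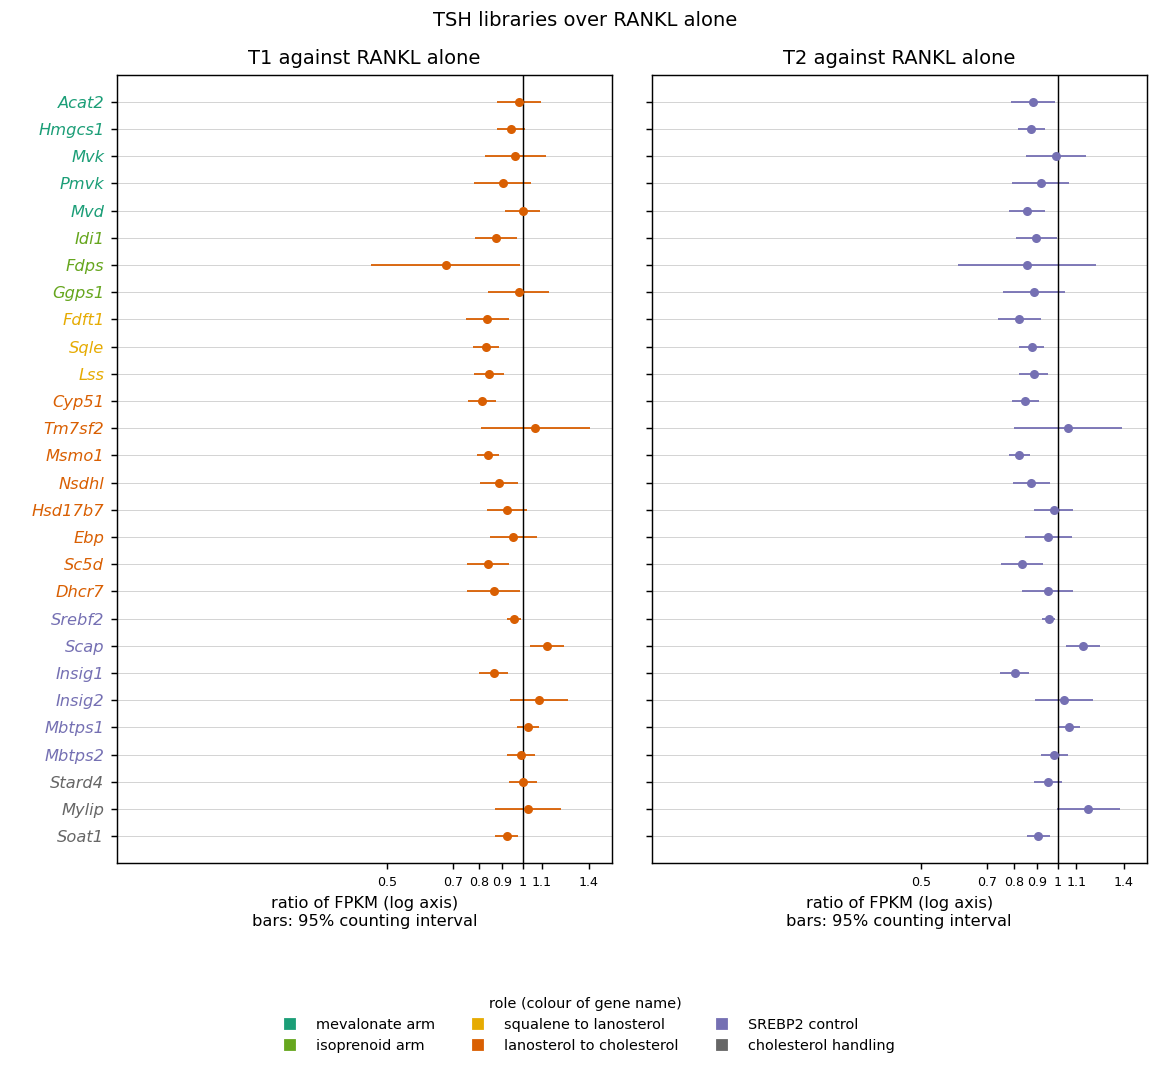
Ratio of FPKM in T1 and in T2 over RANKL alone for each of the 28 genes, on a log axis, with bars for the 95% counting interval and names coloured by role. The 3 genes from squalene to lanosterol (Fdft1, Sqle and Lss) lie left of 1 in both panels, Scap lies right of 1 in both, and the widest bar is that of Fdps, from 50, 66 and 71 reads in T1, T2 and RANKL alone.

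Among the genes that control SREBP2, Insig1 was lower and Scap higher in both TSH libraries. Insig1, whose protein holds SCAP in the endoplasmic reticulum and which SREBP2 itself turns on, had ratios of 0.861 (0.801 to 0.926) in T1 and, in T2, 0.805 (0.748 to 0.866). Its log2 change in T2, -0.30, was the lowest of the 27 genes. Its relative Insig2, which has the same retaining role, was at 6.73, 6.41 and 6.21 FPKM in T1, T2 and RANKL alone. The ratios of Insig2 were 1.08 (0.935 to 1.26) and 1.03 (0.890 to 1.195), within counting error. Insig1 was thus the more abundant of the pair in each library, on the FPKM scale.

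Scap (chr9:110333288-110384950), encoding the sterol-sensing escort of SREBP2, was at 9.22 FPKM in T1, 9.29 in T2 and 8.17 in RANKL alone. Both TSH libraries were above RANKL alone, with ratios of 1.13 (1.04 to 1.23) and 1.14 (1.04 to 1.24). An unclassified transcript on the opposite strand, 5830462I19Rik, shares 985 exon bases with Scap and held 3, 5 and 1 reads. With libraries scaled to 12 reference genes the log2 changes of Scap, 0.16 and 0.17, were 0.072 and 0.087. Under this scaling 0 of the 27 genes were higher beyond counting error in either TSH library. Over all genes, too, it gave fewer higher and more lower calls. Ppia, a member of these 12, had ratios of 1.89 (1.85 to 1.94) and 1.95 (1.91 to 1.99), and without it the log2 changes of Scap were 0.14 and 0.16 and 1 gene was higher in each TSH library. Srebf2 (chr15:82147181-82205379) was lower by a small margin, at ratios of 0.955 (0.922 to 0.989) and 0.956 (0.923 to 0.989), from 6364, 6654 and 6409 reads. Mbtps1 and Mbtps2 encode the Golgi proteases that cut SREBP2 free. Mbtps1 was at 14.9, 15.4 and 14.5 FPKM, with ratios of 1.03 (0.971 to 1.08) and 1.06 (1.004 to 1.12). The log2 change of Mbtps1 in T2, 0.079, came to -0.0038 when libraries were scaled to 12 reference genes, and to 0.071 without Ppia. Mbtps2 was at 9.68, 9.62 and 9.78 FPKM, with ratios of 0.990 (0.924 to 1.06) and 0.983 (0.918 to 1.05).

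Of the 3 genes that handle cholesterol once it is made or taken up, 1 was lower beyond counting error in each TSH library. Over all genes 12.2% were lower in T1 and 13.2% in T2. Soat1, encoding the enzyme that esterifies cholesterol for storage, was at 13.6 FPKM in T1, 13.4 in T2 and 14.7 in RANKL alone, and was lower in both TSH libraries, at ratios of 0.921 (0.868 to 0.976) and 0.907 (0.856 to 0.962). Stard4, encoding a cytosolic sterol carrier, was at 16.2, 15.4 and 16.1 FPKM, with ratios of 1.001 (0.931 to 1.08) and 0.952 (0.885 to 1.02). Of uptake the list held Mylip, whose ubiquitin ligase sends lipoprotein receptors for degradation and which the sterol receptor LXR turns on. Mylip was at 5.39, 6.14 and 5.25 FPKM, with ratios of 1.02 (0.866 to 1.21) and 1.17 (0.995 to 1.37). In T2 it was higher past the fold of 1.1, although its interval held 1.

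The T2 library was then set against T1, a comparison that does not use RANKL alone. The genes differed little here: 2 of 27 were lower beyond counting error in T2 and 0 were higher, against 10.1% and 7.93% of all genes. Past the fold of 1.1, 2 were lower and 1 was higher, against 11.7% and 11.8%. Their median log2 change was -0.0016, against -0.0027 over all genes, and 25 of 27 intervals held 1. Of the 27 genes 14 lay below 0 and 13 above it, against 51.1% and 48.9% of all genes. The called genes were Mvd, at 27.6 FPKM in T2 and 32.2 in T1, a ratio of 0.857 (0.782 to 0.938), and Hmgcs1, at 19.5 and 20.98 FPKM, a ratio of 0.930 (0.867 to 0.997). Both belong to the mevalonate arm, but 2 of 27 is a share below the 10.1% of all genes. With 99% intervals, equal totals or scaling to reference genes, with or without Ppia, 1 lower call remained. That this arm differs from the other genes was not tested. Among the 27 genes the widest difference upward was that of Mylip, at 6.14 FPKM in T2 and 5.39 in T1, a ratio of 1.14 (0.973 to 1.34). For the genes called in 1 TSH library against RANKL alone, the intervals of T2 over T1 mostly held 1, among them Acat2, at 0.902 (0.807 to 1.01), Dhcr7, at 1.104 (0.965 to 1.26), and Mbtps1, at 1.03 (0.979 to 1.09). With libraries scaled to the same total, 2 genes were higher and 1 lower beyond counting error in T2.

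**Figure D5:**
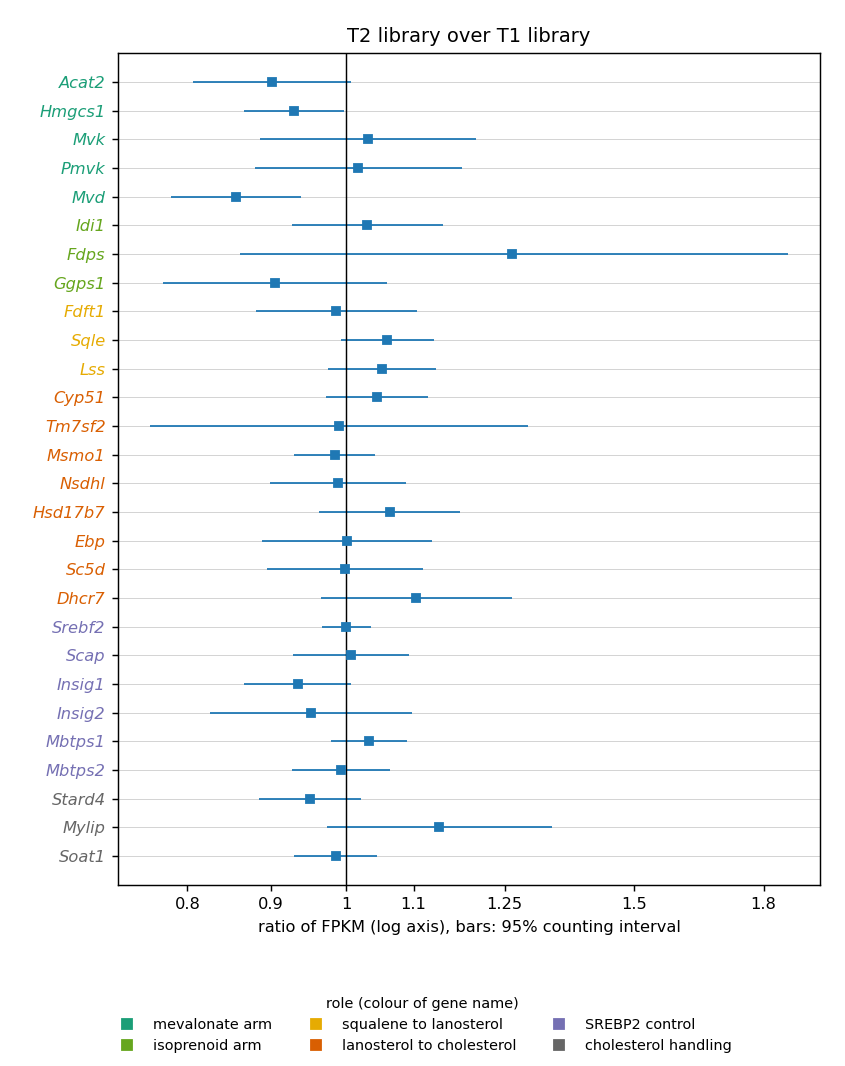
Ratio of FPKM in T2 over T1 for each of the 28 genes, on a log axis, with bars for the 95% counting interval and names coloured by role. Bars of 25 of the 27 genes past the limit cross 1; Mvd, at 0.857, and Hmgcs1, at 0.930, lie left of it.

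Neighbouring pathways were read from lists set by function, and the genes named are among the 4 with the largest log2 changes in each. A further list, of cholesterol genes and of genes with other roles such as Fabp5 and Lpin1, had 11 genes past the limit. Of these 11, 3 were lower and 0 higher beyond counting error in T1, and 9 were lower and 1 higher in T2 (all genes: 12.2% and 10.8%, then 13.2% and 10.2%). Fabp5 and Lpin1 are among the 9. The median log2 changes were -0.08 and -0.16. Fabp5, a fatty acid carrier gene, was at 8.34, 7.76 and 9.09 FPKM in T1, T2 and RANKL alone, with ratios of 0.918 (0.810 to 1.04) and 0.854 (0.753 to 0.968). Lpin1, a phosphatidate phosphatase gene, was at 3.32, 3.04 and 3.62 FPKM, with ratios of 0.917 (0.814 to 1.03) and 0.840 (0.744 to 0.949). The higher gene was Soat2, which encodes another cholesterol esterifying enzyme, at 2.29, 3.25 and 2.10 FPKM, with ratios of 1.09 (0.790 to 1.51) and 1.55 (1.15 to 2.09), from 85, 126 and 75 reads.

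The list set for fatty acid genes under SREBP1, which also held genes with other roles, had 14 members past the limit. Of these 14, 6 were lower and 1 higher beyond counting error in T1, and 7 were lower and 0 higher in T2. Their median log2 changes were -0.07 and -0.10. Over all genes 12.2% were lower and 10.8% higher in T1, and 13.2% and 10.2% in T2. Scd1, encoding the stearoyl-CoA desaturase, was at 7.41, 7.72 and 8.73 FPKM in T1, T2 and RANKL alone, with ratios of 0.849 (0.759 to 0.949) and 0.884 (0.793 to 0.985). Acss2, the acetyl-CoA synthetase gene, was at 1.12, 1.51 and 1.67 FPKM, with ratios of 0.673 (0.556 to 0.813) and 0.907 (0.763 to 1.08), and its T2 level was 1.35 times that of T1 (1.12 to 1.63). Of 18 genes of sterol transport, efflux and LXR action, T1 had 4 lower and 0 higher and T2 had 4 lower and 2 higher, with medians of -0.05 and -0.03; the 2 higher in T2 make a share close to the 10.2% of all genes, and 12.2% and 13.2% of all genes were lower in T1 and T2. Lpcat3, a phospholipid remodelling gene and LXR target, was at 14.3, 15.0 and 17.7 FPKM, with ratios of 0.811 (0.737 to 0.893) and 0.847 (0.771 to 0.931). Cyp27a1, a sterol hydroxylase gene, lay the other way, at 7.99, 8.48 and 7.13 FPKM, with ratios of 1.12 (0.942 to 1.33) and 1.19 (1.005 to 1.41). Abcg1, the sterol exporter gene, was at 36.1, 35.0 and 39.3 FPKM, with ratios of 0.919 (0.869 to 0.971) and 0.891 (0.843 to 0.942).

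Proteins that act on SREBP and INSIG in the endoplasmic reticulum had 17 genes past the limit, with 2 lower and 1 higher in T1, and T2 had 4 lower and 1 higher, and medians of -0.02 and -0.03. In T1 these counts lie near the 12.2% lower and 10.8% higher of all genes, and in T2 all genes had 13.2% and 10.2%. Vcp, encoding the ATPase that draws proteins out of that membrane, was at 96.7, 89.3 and 101 FPKM in T1, T2 and RANKL alone, with a ratio of 0.882 (0.854 to 0.910) in T2. Among 16 genes that attach or use farnesyl and geranylgeranyl groups, 1 was lower and 0 higher in T1, and 1 was lower and 1 higher in T2, with medians of 0.03 and 0.02. The share lower was below that of all genes, 12.2% in T1 and 13.2% in T2. The lower gene was Pggt1b, encoding a subunit of the geranylgeranyl transferase, at 10.1, 9.26 and 11.6 FPKM, with ratios of 0.873 (0.769 to 0.992) and 0.7997 (0.703 to 0.910).

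Osteoclast markers moved in these libraries as well. Of the 9 markers past the limit, 6 were lower and 1 higher beyond counting error in T1, and 9 were lower in T2 (all genes: 12.2% lower and 10.8% higher in T1, 13.2% lower in T2), with median log2 changes of -0.18 and -0.24 and summed levels of all 10 of 2572 FPKM in T1, 2496 in T2 and 3097 in RANKL alone. Among these 9, Ctsk, the cathepsin K gene, had the largest change, with ratios of 0.736 (0.724 to 0.748) and 0.733 (0.721 to 0.745). Calcr, which did not pass the limit, had lower ratios, of 0.590 (0.351 to 0.975) and 0.460 (0.263 to 0.784). These came from 27, 22 and 44 reads in T1, T2 and RANKL alone. The marker higher in T1 was Nfatc1, at 1.05 (1.03 to 1.07), and in T2 its ratio was 0.961 (0.943 to 0.980). Dcstamp and Ocstamp were within counting error in T1, at 0.960 (0.916 to 1.006) and 0.981 (0.933 to 1.03). Of 5 macrophage markers past the limit, T1 had 2 lower and 2 higher and T2 had 2 lower and 3 higher, against 12.2% and 10.8%, then 13.2% and 10.2%, of all genes, and their list of 6 summed to 1217, 1219 and 1231 FPKM. The part of the cells' stage in the values of the cholesterol genes was not tested. In a bulk sample a smaller share of osteoclasts and less RNA per osteoclast cannot be told apart.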

How the data were processed

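RNA levels of RAW264.7 cells were measured in 3 libraries, 1 per group. Per the labels' protocols, a SMARTer kit for mRNA was used on total RNA. GRCm38 and mm10, names of the same assembly, stand in the submitters' processing notes. Which aligner, counter and annotation were used is not given in the sources used here. Values are FPKM as the authors deposited them, and 0 per-sample columns were unused. The other deposited column used is the gene length in bases.

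FPKM times length was a whole multiple of 1 step per library, within 0.01 for 100% of values above 0, which gave reads per gene. For a gene 1 kb long, 3 reads correspond to 0.179 FPKM in T1, 0.171 in T2 and 0.186 in RANKL alone. Ratios carry exact conditional (Clopper-Pearson) 95% intervals. PCR copies are not independent molecules. Log2 changes used a pseudocount of 1 FPKM. A BLAST+ 2.17.0 search of GENCODE release M21 transcripts gave near-identical copies (at least 95% identity over 100 bases and 50% of the shorter transcript, leaving out small RNAs), and shared exon bases were read from its annotation. The planned comparison of INSIG proteins was not made. Members, lists and call rules were chosen with earlier results of these data known. All 28 genes are named, and of each neighbouring list only genes among its 4 largest changes. Functions were tested on simulated reads. Alternatives were other pseudocounts, filters, scalings, folds and intervals, and leaving out or summing copies. Python 3.11.15, numpy 2.4.6, pandas 2.3.3, scipy 1.17.1 and matplotlib 3.10.9 were used.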

Additional observations from a re-analysis of the deposited data

How the results depend on the processing

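The median log2 change of the 27 genes stayed below 0 against RANKL alone under every alternative run, from -0.17 to -0.07 in T1 and from -0.21 to -0.07 in T2, and ran from -0.01 to 0.03 in T2 against T1. The values -0.17 and -0.21 came with scaling to 12 reference genes, which moved the median over all genes to -0.084 in T1 and -0.080 in T2. The value 0.03 came at equal totals, where the median over all genes was 0.027. Of 831 values of single genes, 20 changed sign. In 1 of these the gene had been called, Mbtps1 in T2, at -0.0038 with libraries scaled to 12 reference genes, and the other 19 were of genes within counting error in that comparison, among them Fdps in T2 against T1, at -0.080 with copies summed. Of 196 medians and counts, 59 moved, and the cause was not tested unless named. Under the scaling to 12 reference genes 0 genes were higher beyond counting error or past the fold in T1 and in T2. Over all genes, too, this scaling gave fewer higher and more lower calls in T1 and in T2 by each rule. The loss of higher calls was therefore not particular to these genes. In T2 against T1, 1 was lower by each rule under this scaling. Leaving out Ppia, an alternative chosen after seeing the data, 1 was higher beyond counting error in T2, and 1 was lower by each rule in T2 against T1. At equal totals 0 were higher past the fold in T1, and in T2 against T1 2 were higher and 1 lower by each rule. With 99% intervals 1 was higher in T2 and 1 lower in T2 against T1. At a fold of 1.2, 1 was lower in T1, 2 in T2 and 0 in T2 against T1, with 0 higher in each. The share lower at this fold was below that of all genes in T1 and slightly above it in T2. The excess of lower genes at a fold of 1.1 was thus absent at 1.2 in T1, and in T2 it rested on 2 genes. At 1.5 or 2, 0 passed either way. A pseudocount of 5 gave 0 higher past the fold in all comparisons and 1 lower in T2 against T1. A pseudocount of 0.1, or no filter, gave 2 higher in T2 against T1. Median of ratios, or sums over copies, gave 1 lower there. Without genes that have a copy, which leaves 17, 7 were lower by each rule in T1, 8 beyond counting error and 7 past the fold in T2, and 1 past the fold in T2 against T1, with 0 higher in T1 and 1 in T2 by each rule. Without genes whose exons overlap another gene, chosen after seeing the data and leaving 18, 7 were lower past the fold in T1, 9 beyond counting error and 7 past the fold in T2, and 1 beyond counting error in T2 against T1, with 0 higher in T1 and 1 in T2 by each rule. No paired analysis was possible because each group has 1 library.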
